A study of Mus musculus with 7 samples.

Results

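The genes described here are 37 genes of the interferon response and of antigen presentation by major histocompatibility complex (MHC) class I, measured by bulk RNA sequencing in fibroblasts sorted from the postnatal mouse heart. They were taken by name from a given list, and all 37 were found among the 54735 gene symbols of the count table. All 37 also passed the filter on low counts, which left 17636 genes to test. The sorted cells carried 2 alleles, a tamoxifen-inducible Cre (MCM) at either the Postn or the Tcf21 gene, and an R26eGFP reporter that Cre switches on. Group 1, called Postn P7, was GFP-positive cells of PostnMCM;R26eGFP hearts at 7 days of age (n = 2). Group 2, Tcf21 P7, came from Tcf21MCM;R26eGFP hearts at 7 days (n = 2), and group 3, Tcf21 P30, from hearts of the same genotype at 30 days (n = 3). Males and females were pooled in every group, and every group shared the reporter and the inducible Cre. The Cre marks cells that expressed the driver gene while tamoxifen was present, so each group is a traced lineage defined by 1 driver, and Postn-traced cells at 30 days were not analysed here. Whether each library had its own animals is not stated in the labels, so each p reflects variation among these libraries, which may be partly technical. The study asked how fibroblast subpopulations differ in expression and function as the heart develops after birth.

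Interferons are secreted proteins that put cells into an antiviral state. Type I interferon binds a receptor coupled to the kinases JAK1 and TYK2, and a complex that holds STAT2 and IRF9 then binds a DNA element called the interferon-stimulated response element (ISRE). Interferon gamma acts through JAK1 and JAK2, and its response uses a different element, the gamma-activated site (GAS). The induced genes encode sensors of viral RNA, proteins that block viral replication, and the parts of the pathway that cuts proteins into peptides, carries them into the endoplasmic reticulum and displays them on MHC class I molecules. Many of these genes are also transcribed at a low level in resting fibroblasts.

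The DNA before the RefSeq start of a few members is shown because the 2 elements are the best known sequence feature that such genes share. RefSeq promoter entries of build GRCm38.p6, running from 250 bases before to 50 bases after a gene's RefSeq start, matched 29 of the 37 members. Each entry was searched for an ISRE-like word, GAAANNGAAA on either strand, and for a GAS-like word, TTCNNNGAA, which reads the same on both strands; matches of the 2 words may overlap. The sequences are the last 150 bases before the RefSeq start, 5′ to 3′ on the gene's strand, with matches to either word in capitals.
Isg15, chr4:156200819-156200968, minus strand: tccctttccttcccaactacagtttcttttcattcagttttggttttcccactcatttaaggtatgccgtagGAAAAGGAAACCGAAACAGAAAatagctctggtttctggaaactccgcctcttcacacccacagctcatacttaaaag
Ifit1, chr19:34640739-34640888, plus strand: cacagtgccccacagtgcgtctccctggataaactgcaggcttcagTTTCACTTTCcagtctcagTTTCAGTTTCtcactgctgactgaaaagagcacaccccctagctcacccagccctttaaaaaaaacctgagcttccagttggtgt
Igtp, chr11:58199406-58199555, plus strand: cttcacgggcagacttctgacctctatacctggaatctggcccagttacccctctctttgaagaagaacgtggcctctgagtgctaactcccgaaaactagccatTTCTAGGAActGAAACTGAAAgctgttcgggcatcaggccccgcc
Bst2, chr8:71537473-71537622, minus strand: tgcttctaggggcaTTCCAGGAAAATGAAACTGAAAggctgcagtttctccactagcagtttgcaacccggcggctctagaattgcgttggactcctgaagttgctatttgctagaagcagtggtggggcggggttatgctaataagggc
B2m, chr2:122147537-122147686, plus strand: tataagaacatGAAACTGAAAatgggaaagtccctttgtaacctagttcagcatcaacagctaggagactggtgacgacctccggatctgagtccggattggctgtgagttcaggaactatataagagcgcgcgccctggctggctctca
Psmb8, chr17:34198045-34198194, plus strand: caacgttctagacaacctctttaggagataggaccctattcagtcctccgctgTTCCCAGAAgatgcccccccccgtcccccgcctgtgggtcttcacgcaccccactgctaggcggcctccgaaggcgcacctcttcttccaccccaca
Tap1, chr17:34187406-34187555, plus strand: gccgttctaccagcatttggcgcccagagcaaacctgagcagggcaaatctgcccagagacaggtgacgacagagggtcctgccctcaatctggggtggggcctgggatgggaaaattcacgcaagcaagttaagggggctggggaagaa
The Isg15 sequence held 3 overlapping ISRE-like words between 78 and 57 bases before the start. Ifit1 held 2, starting 104 and 85 bases before the start, both in the reverse orientation. Igtp and Bst2 carried words of both kinds close together, B2m an ISRE-like word 139 bases before its start, and Psmb8 a GAS-like word alone. The Tap1 window held neither. In the GENCODE annotation Psmb8 begins at 34197721, so the Psmb8 stretch lies inside that gene model and not upstream of it.

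An ISRE-like word was present in 13 of the 29 members with an entry (44.8%), against 3.99% of the 27025 genes in the promoter table and 3.44% of its 32851 windows. Of these 13, 9 had the word before the start and 4 (Ddx58, Eif2ak2, Ifih1 and Ifitm3) had it only within the first 50 transcribed bases. A GAS-like word was present in 8 of the 29 (27.6%), against 9.55% of all genes and 8.3% of all windows. The members without an entry, which could not be searched, were Dhx58, Usp18, Parp9, Parp14, Mx2, Rtp4, Ifi27 and Tap2. A match is a description of the letters in this window and not a measured binding site. The windows of Irf9, Irgm1, H2-D1, Tapbp, Psmb8 and Psmb9 lie wholly inside their GENCODE gene models. For these genes the DNA before the GENCODE start was not searched.

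The 7 libraries held 15207835 to 18519528 counts each, and levels are given as CPM, counts relative to a common scaled library total, in the order of the replicate numbers. The labelled cell type was checked first: the 7 fibroblast markers summed to 21859 to 27040.0 CPM in Postn P7, to 29689 to 29774 CPM in the Tcf21 P7 libraries and to 16083 to 19621 CPM in Tcf21 P30. Most of each sum was Col1a1, Col1a2 and Postn, which were called lower in Tcf21 P30 than in Tcf21 P7. Pdgfra was called higher, with a mean of 1207 CPM in Tcf21 P30 and 855 CPM in Tcf21 P7. Dcn, Lum and Tcf21 were not called between these ages. Lymphocyte markers were near 0: the 8 of them summed to between 4.07 and 10.2 CPM, with Cd3d, Cd8a and Nkg7 at 0 counts in at least 1 library. The 10 endothelial markers summed to 3854 CPM in Tcf21 P30 replicate 1 and to between 1022 and 1674 CPM in the other 6 libraries, where Postn P7 replicate 1 was the highest. The 11 macrophage markers summed to between 1245 and 1250.2 CPM in Tcf21 P7, 421.5 to 632.7 CPM in Tcf21 P30 and 360.2 to 499.2 CPM in Postn P7. Results that rest on the endothelial-rich libraries are given with and without them at the end.

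The age comparison, Tcf21 P30 against Tcf21 P7, asked how the members changed within 1 traced lineage between 7 and 30 days. The members were higher at 30 days as a group. Of the 37, 32 rose (edgeR quasi-likelihood F-test, Benjamini-Hochberg adjusted p under 0.05 over all genes tested), none fell and 5 did not pass, while 16.7% of all genes tested rose. The median change was 1.65 on the log2 scale, against 0.03 over all genes tested, and it ran from 0.79 for Tap1 to 4.74 for Ifit1. At least a 2-fold higher fitted level was seen for 33 members, at least 4-fold for 15 and at least 8-fold for 5. In 36 of the 37, all 3 libraries of Tcf21 P30 lay above both libraries of Tcf21 P7, a pattern found in 31.8% of all genes. The exception was Oas1a. Summed over the 37 genes, the level was 1677 and 1659.9 CPM in the Tcf21 P7 libraries, and 5189.8, 4187 and 4076 CPM in Tcf21 P30. In sorted bulk RNA, fewer cells of a type and less RNA per cell cannot be told apart, and this holds for every difference given here.

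**Figure D1:**
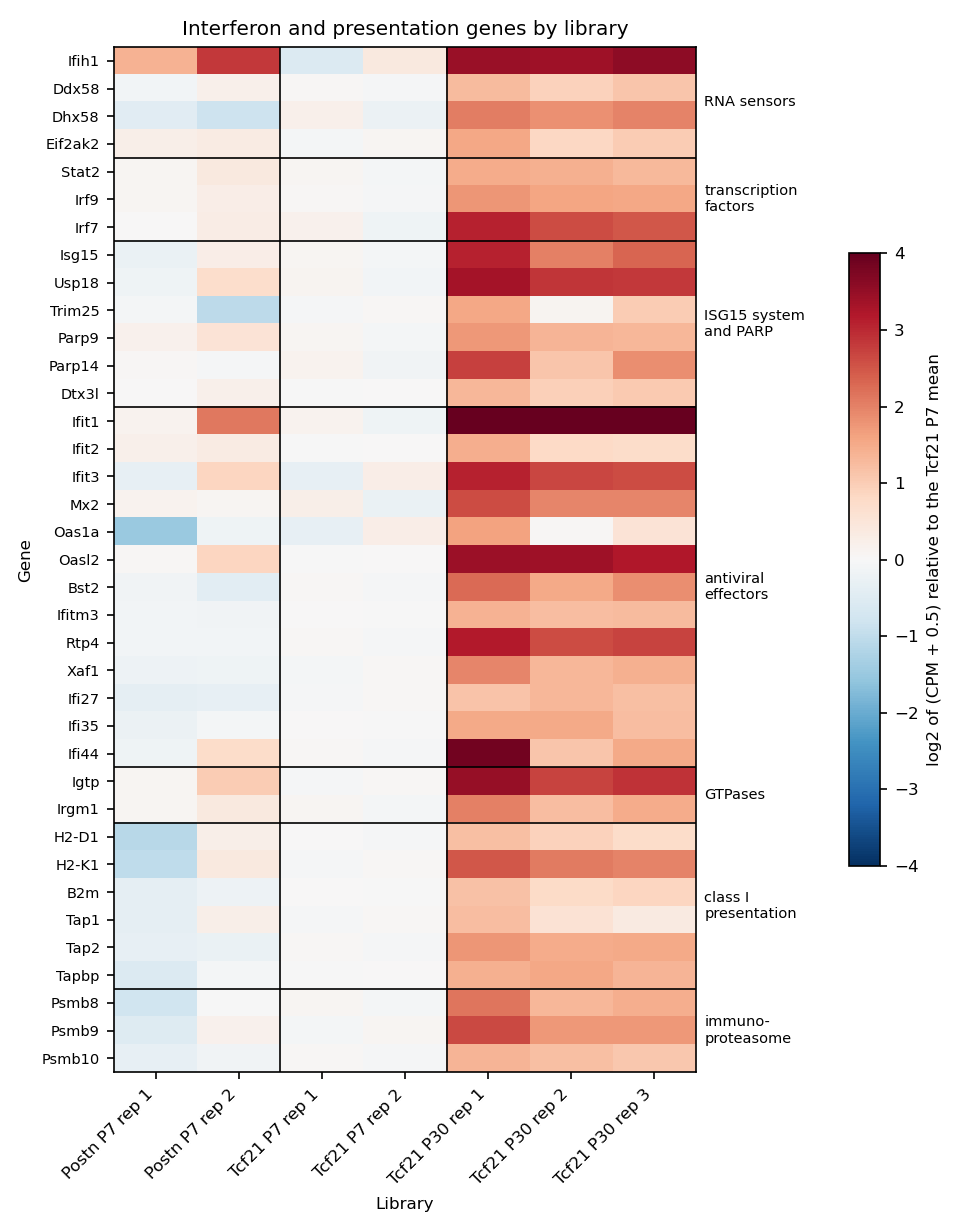
Level of each of the 37 genes (rows) in each of the 7 libraries (columns), as log2 of (CPM + 0.5) relative to the Tcf21 P7 mean, with colours limited to 4 in either direction. The 3 Tcf21 P30 columns are above the Tcf21 P7 mean in every row, and both day 7 groups stay near 0 for most rows.

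All 4 RNA sensors rose, with a median log2 change of 1.65. Each change is followed by its standard error. Ifih1, which encodes MDA5, a cytoplasmic sensor of long viral RNA duplexes (chromosome 2, 62595798 to 62646255), was at 1.42 and 3.17 CPM in the Tcf21 P7 libraries and at 30.2, 28.5 and 32.9 CPM in Tcf21 P30 (log2 change 3.73 ± 0.56, adjusted p = 0.0045). The day 30 libraries were close to each other and all well above both day 7 libraries. Ddx58, which encodes RIG-I, the sensor of short RNAs with a triphosphate end, stood at 43.9 and 41.7 CPM at day 7 and 104, 81.7 and 92.2 CPM at day 30 (log2 change 1.11 ± 0.13, adjusted p = 0.00077). Dhx58, the gene of LGP2, a relative of both sensors that lacks their signalling domains, was at 4.26 and 3.06 CPM at day 7 and 16.6, 14.3 and 15.9 CPM at day 30 (log2 change 2.09 ± 0.23, adjusted p = 0.00048). Eif2ak2, encoding the kinase PKR, which stops translation when it binds viral RNA, was at 10.5 and 11.7 CPM at day 7 and 33.3, 20.2 and 22.8 CPM at day 30 (log2 change 1.20 ± 0.22, adjusted p = 0.0054). Ddx58 had the smallest change of the 4 and Ifih1 the largest, and the ages did not overlap in any of them.

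All 3 transcription factors of the response rose. Stat2, a factor activated by the type I receptor that binds IRF9, was at 36.0 and 32.4 CPM in the Tcf21 P7 libraries and 97.3, 92.8 and 85.7 CPM in Tcf21 P30 (log2 change 1.43 ± 0.12, adjusted p = 0.00017). Irf9, the DNA-binding part of that complex, was at 33.8 and 31.2 CPM at day 7 and 111, 98.1 and 96.6 CPM at day 30 (log2 change 1.65 ± 0.11, adjusted p = 6.5e-05). Irf7, the factor that amplifies transcription of the type I interferon genes and is itself induced by interferon, changed most, from 8.81 and 6.87 CPM to 69.9, 50.5 and 45.8 CPM (log2 change 2.82 ± 0.23, adjusted p = 0.00014). In each of the 3 genes the libraries of the 2 ages were far apart compared with the spread within an age.

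Of the 6 genes of ubiquitin-like modification and of the PARP family, 5 rose, with a median change of 1.80 over the 6. Isg15, the ubiquitin-like protein that is attached to many proteins after interferon (chromosome 4, 156199424 to 156200818), was at 3.01 and 2.65 CPM in the Tcf21 P7 libraries and at 27.5, 13.1 and 16.3 CPM in Tcf21 P30 (log2 change 2.74 ± 0.37, adjusted p = 0.0015). Usp18, the protease that removes ISG15 and that also restrains the type I receptor, was at 3.58 and 3.00 CPM at day 7 and 37.3, 27.3 and 26.5 CPM at day 30 (log2 change 3.20 ± 0.32, adjusted p = 0.00036). Both were low in each day 7 library and several times higher in each day 30 library. Parp9 and Dtx3l encode a pair of proteins that bind each other, and their genes start 681 bases apart on opposite strands of chromosome 16. Parp9 was at 22.3 and 20.0 CPM at day 7 and 71.7, 55.2 and 54.0 CPM at day 30 (log2 change 1.51 ± 0.18, adjusted p = 0.00064), and Dtx3l at 26.2 and 27.4 CPM at day 7 and 68.5, 52.5 and 55.9 CPM at day 30 (log2 change 1.14 ± 0.14, adjusted p = 0.00083). Their exons overlap by 9.4% and 8% of their lengths, so part of their reads cannot be told apart without strand. Parp14, a large ADP-ribosyltransferase, had a wide spread at day 30, with 81.0, 25.4 and 43.4 CPM against 12.8 and 10.4 CPM at day 7 (log2 change 2.10 ± 0.51, adjusted p = 0.027). Trim25, the ubiquitin ligase that activates RIG-I, did not pass: it was at 25.1 and 27.2 CPM at day 7 and at 77.7, 28.3 and 53.4 CPM at day 30 (log2 change 1.02 ± 0.50, adjusted p = 0.18), with replicate 2 of day 30 close to the day 7 level.

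The antiviral effectors were the most numerous role, and 11 of 13 rose, with a median change of 1.96. The 3 members of the Ifit family, whose proteins recognise the ends of viral RNA, lie close together on chromosome 19. Ifit1 (chromosome 19, 34640871 to 34650009) had the largest change of all 37 members, from 1.65 and 1.21 CPM in the Tcf21 P7 libraries to 46.3, 35.8 and 33.1 CPM in Tcf21 P30 (log2 change 4.74 ± 0.72, adjusted p = 0.0055). Ifit3 was at 5.80 and 9.18 CPM at day 7 and 66.8, 50.6 and 48.2 CPM at day 30 (log2 change 2.88 ± 0.43, adjusted p = 0.0047), and part of its reads may belong to its near copy Ifit3b. Ifit2 was already at 37.1 and 38.3 CPM at day 7 and reached 104, 66.1 and 63.5 CPM (log2 change 1.04 ± 0.21, adjusted p = 0.0097). The 3 neighbours thus differed in the size of their change, which was smallest for Ifit2. The oligoadenylate synthetase family makes the signal that starts RNase L, and it was split. Oasl2, a synthetase-like member, was at 9.83 and 9.93 CPM at day 7 and 109.6, 108 and 95.6 CPM at day 30 (log2 change 3.40 ± 0.25, adjusted p = 0.00012), with 3 close libraries at day 30. Oas1a was at 3.47 and 5.42 CPM at day 7 and 14.5, 4.57 and 6.76 CPM at day 30 (log2 change 0.95 ± 0.62, adjusted p = 0.29); 1 day 30 library lay within the day 7 range, and reads may be shared with its close relatives. Mx2, annotated as a polymorphic pseudogene in this build and otherwise a GTPase gene that blocks viruses, was at 1.76 and 1.10 CPM at day 7 and 11.4, 6.98 and 6.92 CPM at day 30 (log2 change 2.55 ± 0.35, adjusted p = 0.0014).

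Ifitm3 and Bst2 encode membrane proteins that hold back virus entry and virus release. Ifitm3 was high in every library, at 215 and 209.7 CPM in the Tcf21 P7 libraries and 557, 505 and 509 CPM in Tcf21 P30 (log2 change 1.30 ± 0.09, adjusted p = 6.4e-05), and its replicates were nearly equal within each age. Bst2, the tetherin gene whose upstream sequence is shown above, was at 15.7 and 14.9 CPM at day 7 and 76.0, 45.1 and 57.5 CPM at day 30 (log2 change 1.96 ± 0.22, adjusted p = 0.00065). Rtp4, an interferon-induced chaperone of membrane receptors, was at 8.41 and 7.85 CPM at day 7 and 76.5, 52.1 and 55.2 CPM at day 30 (log2 change 2.91 ± 0.19, adjusted p = 6.0e-05). It had the smallest adjusted p of the 13 effectors. Ifi27, a small mitochondrial protein gene, was at 74.2 and 78.7 CPM at day 7 and 170.1, 192 and 175 CPM at day 30 (log2 change 1.23 ± 0.09, adjusted p = 8.6e-05). Ifi35, whose product binds the related protein NMI, was at 25.5 and 25.4 CPM at day 7 and 73.2, 73.1 and 60.5 CPM at day 30 (log2 change 1.44 ± 0.12, adjusted p = 0.00015). Xaf1, a gene that favours cell death after interferon, was at 15.9 and 17.4 CPM at day 7 and 66.6, 42.4 and 45.5 CPM at day 30 (log2 change 1.63 ± 0.20, adjusted p = 0.0009). Ifi44 was the second effector that did not pass: its level was 1.93 and 1.79 CPM at day 7 and 33.8, 4.63 and 6.32 CPM at day 30 (log2 change 3.00 ± 1.10, adjusted p = 0.096). Replicate 1 of day 30 stood 6.18 times above the mean of the other two, the widest such gap of the 37 members.

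Both immunity-related GTPases rose. These proteins act on the vacuoles in which intracellular parasites and bacteria live and are strongly induced by interferon gamma. Igtp (chromosome 11, 58199556 to 58207591) was at 4.09 and 4.44 CPM in the Tcf21 P7 libraries and at 52.5, 30.4 and 34.6 CPM in Tcf21 P30 (log2 change 3.20 ± 0.39, adjusted p = 0.0013). Irgm1, a regulator of the other family members, was at 7.67 and 6.75 CPM at day 7 and 30.7, 17.8 and 21.0 CPM at day 30 (log2 change 1.68 ± 0.26, adjusted p = 0.0023). In each gene the lowest day 30 library was above the highest day 7 library.

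Of the 6 class I presentation genes, 4 rose, with a median change of 1.20 over the 6. H2-K1, 1 of the classical heavy chains that hold the peptide at the cell surface (chromosome 17, 33996017 to 34000347), was at 100.3 and 108 CPM in the Tcf21 P7 libraries and 589, 438 and 412 CPM in Tcf21 P30 (log2 change 2.21 ± 0.45, adjusted p = 0.017). The other heavy chain, H2-D1, was at 340.1 and 326 CPM at day 7 and 759, 628 and 548 CPM at day 30 and did not pass (log2 change 0.95 ± 0.40, adjusted p = 0.12), although its day 30 libraries all lay above the day 7 ones. It was called without either Postn P7 library (0.95, adjusted p = 0.003 and 0.0031). Reads of these heavy chains may be shared between them and with other class I genes, so the contrast between H2-K1 and H2-D1 is uncertain. B2m, the light chain common to all class I molecules, was at 260.4 and 256 CPM at day 7 and 588, 436 and 471 CPM at day 30 (log2 change 0.95 ± 0.14, adjusted p = 0.0018). Tap2 and Tap1 encode the 2 parts of the transporter that moves peptides into the endoplasmic reticulum. Tap2 was at 45.9 and 43.6 CPM at day 7 and 154, 125 and 128 CPM at day 30 (log2 change 1.60 ± 0.12, adjusted p = 8.3e-05). Tap1 was at 28.5 and 30.9 CPM at day 7 and 71.3, 44.5 and 38.2 CPM at day 30 (log2 change 0.79 ± 0.30, adjusted p = 0.094), the smallest change of the 37 members and one that did not pass. Tapbp, or tapasin, which bridges the transporter and the class I molecule, was at 178 and 183 CPM at day 7 and 481, 534 and 462 CPM at day 30 (log2 change 1.45 ± 0.15, adjusted p = 0.00037). Overlapping gene models, Gm19412 and Zbtb22, share 24.9% of its exon bases.

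The 3 subunits that form the immunoproteasome all rose. They replace the standard catalytic subunits of the proteasome and change which peptides it makes. Psmb8 was at 21.9 and 19.9 CPM in the Tcf21 P7 libraries and 93.7, 53.5 and 57.8 CPM in Tcf21 P30 (log2 change 1.71 ± 0.33, adjusted p = 0.011). Psmb9, which starts 211 bases from Tap1 on the opposite strand, was at 6.93 and 7.73 CPM at day 7 and 48.0, 25.5 and 25.7 CPM at day 30 (log2 change 2.17 ± 0.36, adjusted p = 0.0048). Psmb10 was at 35.7 and 33.1 CPM at day 7 and 89.7, 79.2 and 72.5 CPM at day 30 (log2 change 1.23 ± 0.12, adjusted p = 0.0003). The lowest day 30 library of each was above the highest day 7 library. The standard subunits that they replace did not rise, and this group was named after its values were seen. Psmb6 fell slightly (log2 change -0.26 ± 0.07, adjusted p = 0.027), as did Psmb7 (log2 change -0.36 ± 0.10, adjusted p = 0.03), and Psmb5 did not pass (log2 change -0.23 ± 0.10, adjusted p = 0.12). Ratios were taken per kilobase of exon, with exons merged over all annotated transcripts. Their absolute size depends on these lengths, so only the change between groups can be read. The ratio of Psmb8 to its counterpart Psmb5 ran from 0.148 to 0.171 in Tcf21 P7 and from 0.475 to 0.887 in Tcf21 P30. The ratio of Psmb9 to Psmb6 ran from 0.0205 to 0.0235 at day 7 and from 0.0915 to 0.173 at day 30. Psmb10 to Psmb7 ran from 0.822 to 0.969 and then from 2.40 to 2.91. The calls of Psmb6 and Psmb7 were each lost in 6 of 17 alternative settings, while the signs held.

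**Figure D2:**
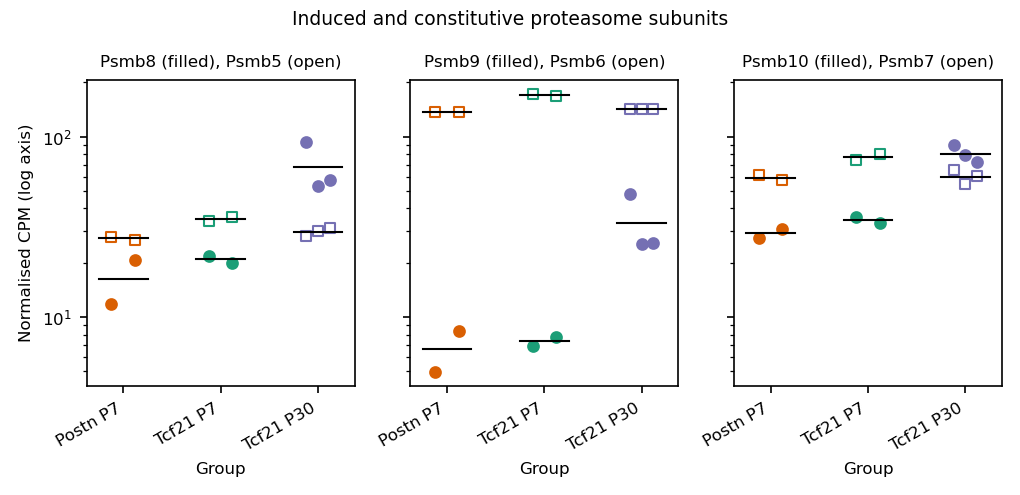
Normalised CPM on a log axis of each immunoproteasome subunit (filled points) and of the standard subunit it replaces (open points), 1 panel per pair and 1 point per library in each of the 3 groups. Filled points lie higher in Tcf21 P30 than in both day 7 groups, and open points stay near 1 level.

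Position on the chromosome was a shared feature too. Of the 37 members, 7 lie within 1 stretch of chromosome 17, from 33915899 to 35267499 (GRCm38), which is the MHC region: H2-D1, H2-K1, Tap1, Tap2, Tapbp, Psmb8 and Psmb9. Of these 7, 5 rose and the other two, H2-D1 and Tap1, did not pass. Members with and without a promoter word can be set side by side. The 13 with an ISRE-like word had a median change of 1.68 with 12 called, and the 16 with an entry but no such word had a median of 1.54, also with 12 called. The 8 without an entry had a median of 2.10, and all 8 were called. These medians are descriptions, and their difference was not tested.

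**Figure D3:**
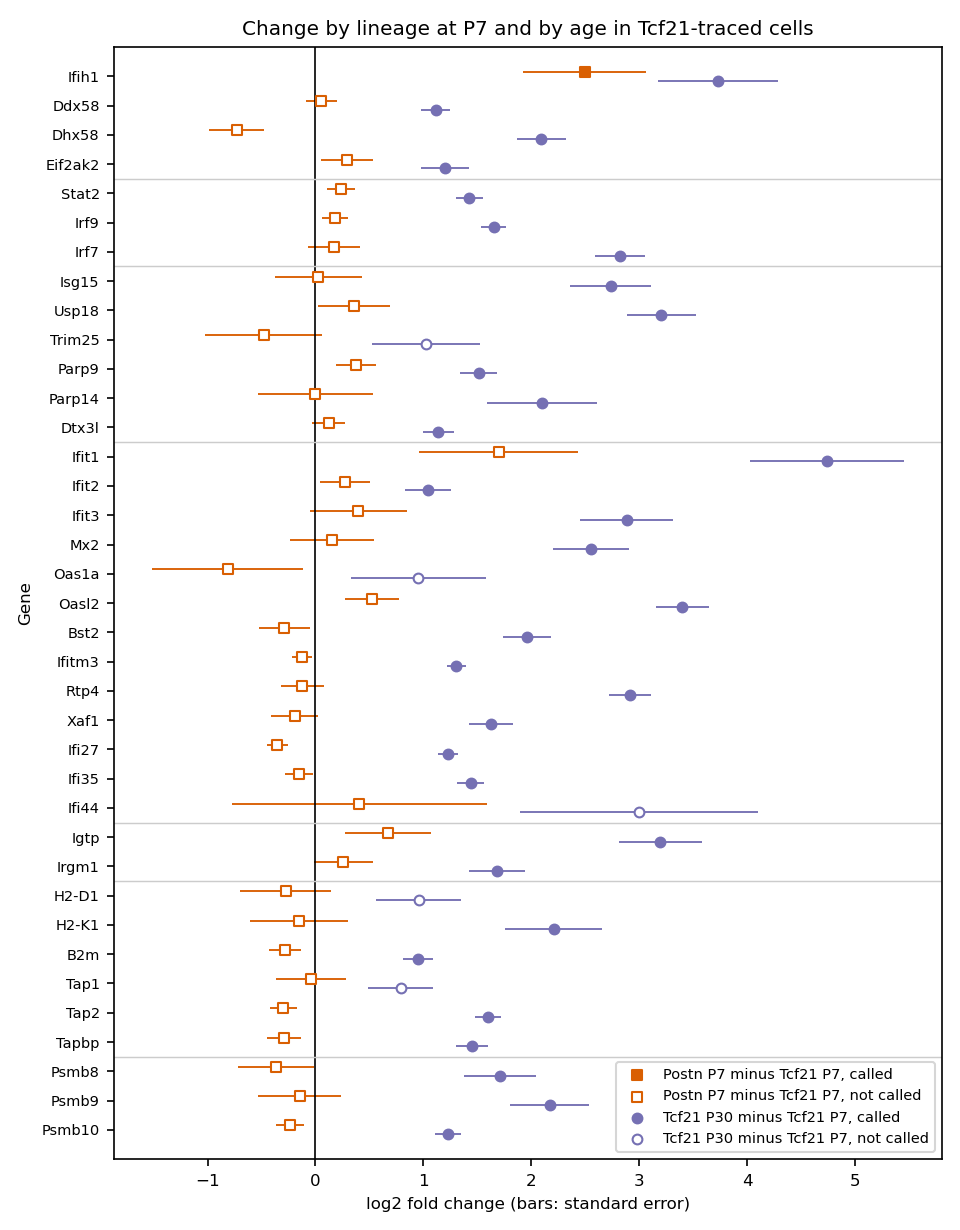
Log2 fold change with its standard error for each of the 37 genes in 2 comparisons, Postn P7 against Tcf21 P7 and Tcf21 P30 against Tcf21 P7, with filled symbols where the gene was called. The age changes all lie right of 0, while the lineage differences at day 7 lie on both sides of 0 and only Ifih1 is filled.

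**Figure D4:**
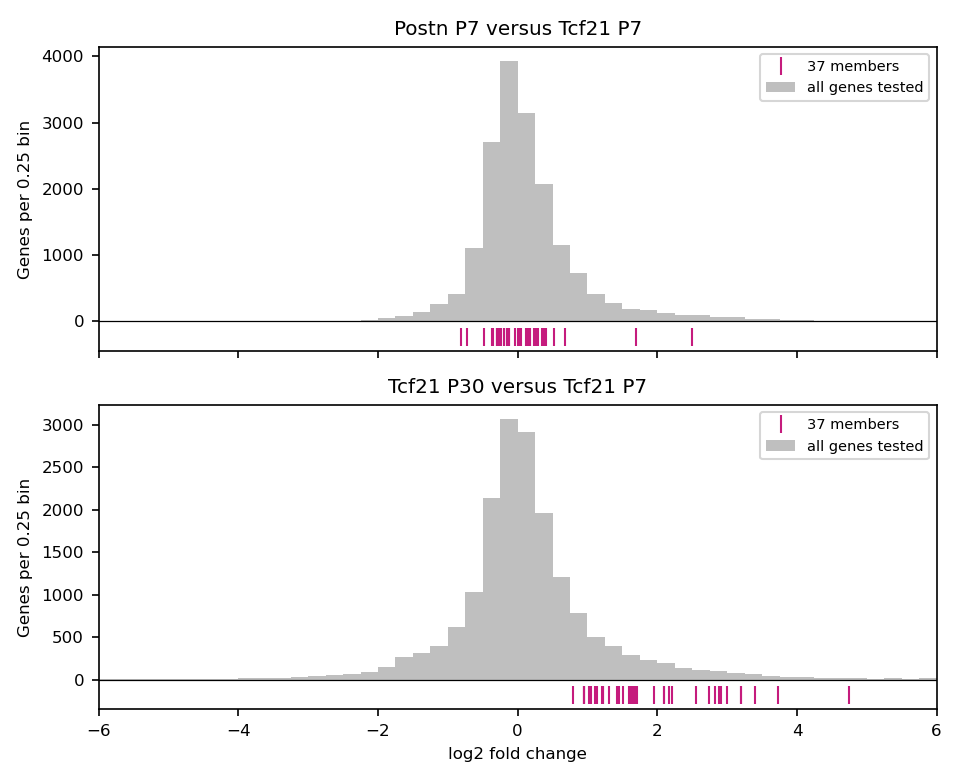
Histograms of log2 fold change over all 17636 genes tested, in bins of 0.25, with the 37 members as ticks under each panel for the day 7 lineage comparison and the age comparison. The ticks centre near 0 in the lineage panel and sit between 0.79 and 4.74 in the age panel.

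The age calls rested on both Tcf21 P7 libraries for 5 members. Without replicate 1 or replicate 2 of Tcf21 P7, which leaves 1 library there, 27 of the 32 were called, and Parp14, Ifit1, Ifit2, H2-K1 and Psmb8 were lost with adjusted p between 0.052 and 0.16. Parp14 was also lost without either Postn P7 library (adjusted p = 0.067 and 0.068) and in a fit of the 2 groups alone (adjusted p = 0.06).

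Postn P7 was set against Tcf21 P7 to ask whether the traced lineages differ at 1 age. For these genes little difference was detected. Ifih1 was called higher in Postn P7 and the other 36 members did not pass, against 12% of all genes called in either direction. The median log2 difference was -0.0009, with 18 members above 0 and 19 below, and 4 had an unadjusted p under 0.05. Ifih1 was at 6.87 and 19.2 CPM in the Postn P7 libraries, and 1.42 and 3.17 CPM was measured in Tcf21 P7 (log2 difference 2.49 ± 0.57, adjusted p = 0.042). Both Postn P7 libraries were above both Tcf21 P7 libraries, but Postn P7 replicate 2 was 2.79 times replicate 1. The call of Ifih1 was lost without Postn P7 replicate 2 (adjusted p = 0.08), without Tcf21 P7 replicate 1 (0.2) or 2 (0.13), and without Tcf21 P30 replicate 2 (0.06) or 3 (0.076). It was also lost with limma-voom (0.06), and its size ran from 1.57 to 3.19 over the 17 alternative settings.

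Some members with missed thresholds had wide intervals in the lineage comparison. Ifit1 was at 1.64 and 7.81 CPM in Postn P7, with 1 library at the Tcf21 P7 level and 1 above it (log2 difference 1.70 ± 0.74, adjusted p = 0.19). The heavy chains had a similar gap between the Postn P7 libraries, H2-D1 at 155 and 396 CPM (log2 difference -0.27 ± 0.42, adjusted p = 0.71) and H2-K1 at 51.3 and 136 CPM (log2 difference -0.15 ± 0.46, adjusted p = 0.85). Their Tcf21 P7 libraries lay between the Postn P7 ones. Other members were measured more tightly: Ifitm3, at 196 and 192 CPM in Postn P7, differed from Tcf21 P7 by -0.13 ± 0.09 on the log2 scale, and Tap2, at 35.3 and 37.5 CPM, by -0.30 ± 0.12. Ifi27 came nearest to a call on the low side, at 59.1 and 60.7 CPM (log2 difference -0.35 ± 0.10, adjusted p = 0.052), and it was called lower without Tcf21 P30 replicate 1 (-0.34, adjusted p = 0.036). Without Postn P7 replicate 1, Ifit1 and Oasl2 were called higher in Postn P7 besides Ifih1. Without Postn P7 replicate 2, H2-D1 was called lower in Postn P7 (-1.11, adjusted p = 0.038). The 6 class I genes and the 3 immunoproteasome genes all had values below 0, from -0.37 to -0.04, none of which passed. When the libraries were scaled by their totals alone, the median of all genes moved from 0.002 to 0.116 and that of the members to 0.114, so differences of that size depend on the scaling.

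The comparison of Postn P7 with Tcf21 P30 differs in both lineage and age, which cannot be told apart in it, and it shares its Tcf21 P30 libraries with the age comparison. Here 31 of 37 members were lower in Postn P7, none was higher and 6 did not pass, against 12.5% of all genes called lower. The median log2 difference was -1.77, against -0.01 over all genes tested. In all 37, both Postn P7 libraries lay below all 3 Tcf21 P30 libraries, which was so for 25.9% of all genes. The 31 were all among the 32 that rose with age, and Ifih1 was the gene called with age but not here (log2 difference -1.24 ± 0.47, adjusted p = 0.12). The 5 members that did not pass in the age comparison did not pass here either.

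The members are given by role with their Postn P7 levels. Ifit1, at 1.64 and 7.81 CPM in Postn P7, was lower than Tcf21 P30 (log2 difference -3.04 ± 0.63, adjusted p = 0.02), and so was Rtp4, at 7.46 and 7.49 CPM (log2 difference -3.03 ± 0.20, adjusted p = 4.2e-05). Oasl2 was at 10.2 and 18.4 CPM (log2 difference -2.88 ± 0.24, adjusted p = 0.00019), and Dhx58 at 2.54 and 1.86 CPM (log2 difference -2.82 ± 0.24, adjusted p = 0.00014). Among the factors, Irf7 was at 7.88 and 9.80 CPM (log2 difference -2.65 ± 0.23, adjusted p = 0.00016), and Irf9 at 34.3 and 39.5 CPM (log2 difference -1.47 ± 0.11, adjusted p = 9.1e-05). Isg15 was at 2.27 and 3.52 CPM (log2 difference -2.71 ± 0.37, adjusted p = 0.0016) and Usp18 at 2.86 and 5.64 CPM (log2 difference -2.85 ± 0.31, adjusted p = 0.00052). In these genes each Postn P7 library was well below each day 30 library. Of the presentation genes, B2m was at 201 and 223 CPM (log2 difference -1.23 ± 0.14, adjusted p = 0.00053), Tapbp at 123 and 172 CPM (log2 difference -1.74 ± 0.15, adjusted p = 0.00015) and Tap2 at 35.3 and 37.5 CPM (log2 difference -1.90 ± 0.12, adjusted p = 3.9e-05). The 3 immunoproteasome subunits were all lower, Psmb9 at 4.97 and 8.33 CPM (log2 difference -2.32 ± 0.37, adjusted p = 0.0044), Psmb8 at 11.8 and 20.6 CPM (log2 difference -2.08 ± 0.34, adjusted p = 0.0066) and Psmb10 at 27.5 and 30.9 CPM (log2 difference -1.46 ± 0.12, adjusted p = 0.00013). The call of Eif2ak2 was lost without either Postn P7 library, those of Parp14 and Ifit2 without each of the 4 day 7 libraries in turn, and that of Ifit1 without either Tcf21 P7 library, with adjusted p from 0.053 to 0.19. Parp14 was also lost without Tcf21 P30 replicate 3 (adjusted p = 0.058), and the other 27 calls held in all 17 settings.

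The remaining pathway genes, 77 from 5 lists, gave a wider view, and 72 of them could be tested. In the age comparison, 46 rose, 5 fell and 21 did not pass, with a median change of 1.28. Over all 17636 genes tested, 16.7% were called higher and 2652 genes were called lower. Without replicate 1 or replicate 2 of Tcf21 P7, which leaves 1 library there, fewer genes were called, both in the lists and over all genes. The median change of the lists was then 1.29 and 1.33, against 0.05 and 0.06 over all genes. The ligands were close to absence of counts: Ifnb1 had 2 counts in 1 Tcf21 P7 library and Ifng 1 count in 1 Tcf21 P30 library, with 0 in all others, so neither could be tested. The receptor chains, named after their values were seen, were split. Ifngr1, the binding chain for interferon gamma, was at 151 and 135 CPM at day 7 and 367, 431 and 392 CPM at day 30 (log2 change 1.47 ± 0.12, adjusted p = 0.00012), and its partner Ifngr2 at 97.2 and 87.6 CPM at day 7 and 95.9, 97.2 and 98.8 CPM at day 30 (log2 change 0.07 ± 0.08, adjusted p = 0.52). The type I chain Ifnar2 rose by less (log2 change 0.51 ± 0.08, adjusted p = 0.0024, and 0.051 without Tcf21 P7 replicate 2), and Ifnar1 did not pass (log2 change -0.04 ± 0.08, adjusted p = 0.71).

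By list, 8 of 15 tested genes of the interferon ligands, receptors and kinases rose and 1 fell, 5 of 8 sensing adaptors rose and 1 fell, and 21 of 31 other induced genes rose and 1 fell. Of the other presentation genes 12 of 15 rose and none fell. The largest called change was that of Nlrc5, the transactivator of the class I genes, which had 2 and 1 counts in Tcf21 P7. It was at 9.59, 2.22 and 2.64 CPM in Tcf21 P30, and the ratio of the summed levels was 54.9, with an exact 95% interval of 18.6 to 268.2 that covers counting error only. Its fitted log2 change of 5.69 ± 1.47 (adjusted p = 0.03) depends on the prior count, and Postn P7 was at 0.529 and 3.97 CPM. Iigp1, another immunity-related GTPase, rose too (log2 change 4.59 ± 1.03, adjusted p = 0.026), as did Ifi203, a member of a DNA sensor family (log2 change 3.85 ± 0.41, adjusted p = 0.00077), and Cxcl9, a chemokine typical of interferon gamma (log2 change 3.83 ± 0.95, adjusted p = 0.025). The calls of Nlrc5, Iigp1 and Cxcl9 were lost without either Tcf21 P7 library, with adjusted p between 0.13 and 0.19, and those of Nlrc5 (0.11) and Cxcl9 (0.08) also with limma-voom, while that of Ifi203 held in all 17 alternatives.

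The MHC class II genes, which antigen-presenting cells use to show peptides to helper T cells, were named after their values were seen. Cd74, the invariant chain, was at 30.6 and 32.5 CPM in the Tcf21 P7 libraries and 208, 141 and 103 CPM in Tcf21 P30 (log2 change 2.25 ± 0.54, adjusted p = 0.03). H2-Aa was at 9.26 and 7.67 CPM at day 7 and 65.4, 35.2 and 25.4 CPM at day 30 (log2 change 2.31 ± 0.53, adjusted p = 0.023), H2-Ab1 at 13.9 and 13.4 CPM at day 7 and 77.6, 54.3 and 35.1 CPM at day 30 (log2 change 2.03 ± 0.36, adjusted p = 0.0078), and H2-Eb1 at 8.53 and 7.73 CPM at day 7 and 47.1, 32.7 and 22.5 CPM at day 30 (log2 change 2.07 ± 0.30, adjusted p = 0.0021). Over the same ages 9 of the 11 macrophage markers were called lower in Tcf21 P30 and none higher, while 2652 of all 17636 genes tested were called lower. The dendritic cell genes Flt3, Xcr1, Itgax and Siglech were under 2 CPM in every library. The remaining gene of that list, Zbtb46, was at 32.4 to 88.3 CPM and highest in Tcf21 P30 replicate 1. Within Tcf21 P30, replicate 1 was also highest for Cd74, H2-Aa, H2-Ab1 and H2-Eb1, and for 34 of the 37 members. The calls of Cd74, H2-Aa and H2-Ab1 were lost without either Tcf21 P7 library, and that of Cd74 also without Tcf21 P30 replicate 2. The part of any immune cell in the class II values was not tested. The 5 genes that fell were Irf8 (log2 change -1.24 ± 0.12, adjusted p = 0.00025), a factor of the myeloid lineage, the kinase gene Ikbke (log2 change -0.48 ± 0.15, adjusted p = 0.042), Ifitm1 (log2 change -0.61 ± 0.13, adjusted p = 0.0099), and the proteasome genes Psmb6 and Psmb7 given above. Of these 5, only Irf8 was still called without either Tcf21 P7 library. The call of Ikbke was lost in 10 of the 17 alternatives, among them DESeq2 (adjusted p = 0.056) and each setting without 1 of the Tcf21 P30 libraries (0.077, 0.055 and 0.11).

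The pathway lists were also read in the other comparisons. Between the day 7 groups, where 12% of all genes were called, 2 genes were higher in Postn P7, Jak2 (log2 difference 0.50 ± 0.09, adjusted p = 0.018) and Tbk1 (log2 difference 0.49 ± 0.12, adjusted p = 0.041), both kinases of interferon signalling, and 3 were lower, Ifi204 (log2 difference -1.11 ± 0.19, adjusted p = 0.015), Mavs (log2 difference -0.41 ± 0.10, adjusted p = 0.032) and Psmb6 (log2 difference -0.32 ± 0.08, adjusted p = 0.042). Over the 17 alternative settings, the calls of Jak2, Tbk1 and Ifi204 were each lost in 5, that of Mavs in 10 and that of Psmb6 in 12. Leaving out both endothelial-rich libraries leaves 1 library in Postn P7. There the median log2 difference of the lists moved from -0.004 to 0.117, and that of all genes from 0.002 to -0.004. Against Tcf21 P30, Postn P7 was lower for 38 genes and higher for Irf8, Ikbke and Ifitm1. Over all 17636 genes tested, 12.5% were called lower and 2070 genes were called higher. The largest differences of the listed genes were Isg20 (log2 difference -3.28 ± 0.22, adjusted p = 5.3e-05), Oasl1 (log2 difference -3.28 ± 0.61, adjusted p = 0.0067), Oas2 (log2 difference -3.23 ± 0.46, adjusted p = 0.002) and Ifi204 (log2 difference -2.99 ± 0.19, adjusted p = 3.9e-05). Without Postn P7 replicate 1 the calls of Oasl1 (adjusted p = 0.05 after rounding) and Ifitm1 (0.051) were lost, and that of Ikbke was lost without 5 of the 7 libraries taken 1 at a time.

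The libraries of a group were not equal for these genes. In Tcf21 P30, replicate 1 was the highest of the 3 libraries for 34 of the 37 members (91.9%), against 37.6% of all genes tested, and its median ratio to the mean of the other two was 1.39. In Postn P7, replicate 2 was above replicate 1 for 31 of 37 (83.8%), against 52.3% of all genes, with a median ratio of 1.23 and the largest ratios at Ifit1 (4.77), Ifih1 (2.79), H2-K1 (2.65) and H2-D1 (2.55). The 10 endothelial markers were all highest in replicate 1 within Tcf21 P30, and 9 of the 10 were higher in replicate 1 within Postn P7. The members were therefore high in the endothelial-rich library of Tcf21 P30 and low in that of Postn P7. Other lists differed too. Within Tcf21 P30, replicate 1 was also highest for 10 of 11 macrophage, 5 of 6 pericyte and 5 of 5 cardiomyocyte markers. It was highest for 1 of 5 dendritic cell, 2 of 8 lymphocyte and 0 of 7 fibroblast markers. Within Postn P7, replicate 1 was above replicate 2 for 6 of 6 pericyte, 5 of 5 cardiomyocyte and 4 of 5 dendritic cell markers. There it was above for 3 of 11 macrophage, 1 of 8 lymphocyte and 0 of 7 fibroblast markers. The macrophage sums were 632.7, 421.5 and 441.8 CPM in Tcf21 P30 and 360.2 and 499.2 CPM in Postn P7. They and the lymphocyte sums were highest in the same library of each group as the members' sum. The endothelial, pericyte, cardiomyocyte, dendritic cell and fibroblast sums were not. What these orders owe to other cells was not tested. Pericyte markers summed to 1475 to 2015 CPM in Postn P7, 977.8 to 1019 CPM in the Tcf21 P7 libraries and 815.9 to 1388 CPM in Tcf21 P30. None of the 10 endothelial markers was called between the ages in Tcf21-traced cells, but their spread at day 30 was wide. They summed to 1212 and 1075 CPM in Tcf21 P7 and to 3854, 1022 and 1223 CPM in Tcf21 P30. For Tek and Flt1 all Tcf21 P30 libraries lay above both Tcf21 P7 libraries, as for 31.8% of all genes, and the ages overlapped for the other markers. A difference in endothelial content was not tested.

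**Figure D5:**
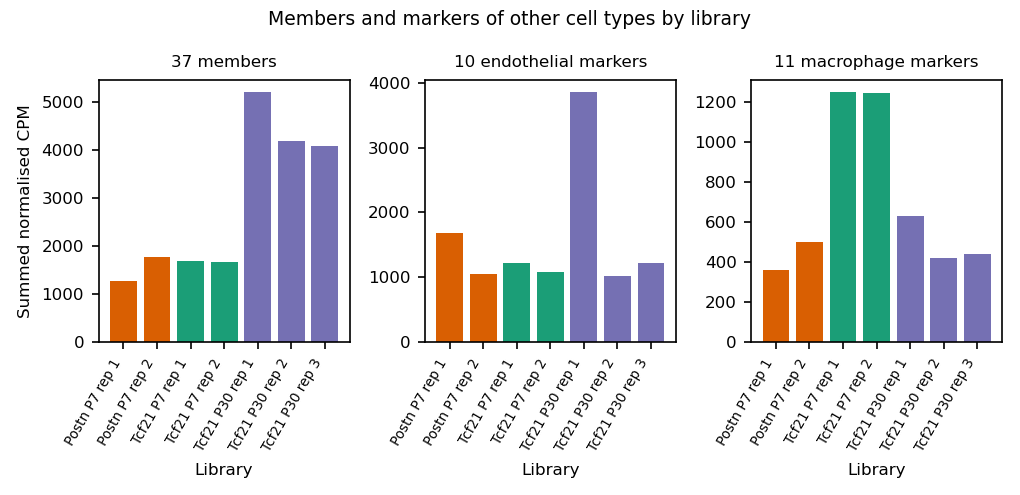
Summed normalised CPM per library of the 37 members, the 10 endothelial markers and the 11 macrophage markers, 1 bar per library, with axes from 0. The other marker lists are not drawn. The members' bars run from 4076 to 5189.8 CPM in the 3 Tcf21 P30 libraries and from 1257 to 1758 CPM in the 4 day 7 libraries, and the endothelial bar stands out in Tcf21 P30 replicate 1.

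Without Tcf21 P30 replicate 1, 33 members were called higher at day 30, against 17.9% of all genes in that setting, and the median change was 1.47. Without both endothelial-rich libraries, Tcf21 P30 replicate 1 and Postn P7 replicate 1, 35 members were called with a median of 1.47, against 20.7% of all genes, and Tcf21 P30 replicates 2 and 3 summed to 4187 and 4076 CPM against 1677 and 1659.9 CPM at day 7. In the same setting 33 members were lower in Postn P7 than in Tcf21 P30, against 12.8% of all genes, with a median of -1.54. Between the day 7 groups 8 members were then called higher in Postn P7, which is left with 1 library: Ifih1, Usp18, Parp9, Ifit1, Ifit3, Oasl2, Igtp and H2-K1. In that setting 10.9% of all genes were called higher in Postn P7. Of the 8 members, H2-K1 changed sign, from -0.15 to 0.39 (adjusted p = 0.016). The part of the other cell types in the values that remain was not tested.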

How the data were processed

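The members, their roles, the other pathway lists and the marker lists were chosen with earlier results of these data known. The authors deposited raw counts per gene symbol, unnormalised, with 1 column per library. Reads were aligned with STAR to GRCm38, per the submitters' processing notes. Versions, the program that counted reads, its annotation and its strand setting are not given in the sources used here.

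Counts were filtered with filterByExpr (minimum count 10, minimum total 15) and scaled by TMM in edgeR 4.0.16 (R 4.3.3). A robust quasi-likelihood model with 1 mean per group was fitted to all 7 libraries, and its F-test gave the 3 group differences. Benjamini-Hochberg adjustment ran over the 17636 genes tested, with a threshold of 0.05. A gene is said to rise, fall or be called only where it passed. CPM are counts over the TMM-scaled library total. Changes are log2 differences ± a standard error derived as the absolute change over the square root of F. Library totals of 15207835 to 18519528 counts leave wide intervals for genes with few counts. Genes were placed on GENCODE vM21 (GRCm38), and promoters came from RefSeq (GRCm38.p6). Replicates within a group differed beyond counting noise, so all 7 were kept. The chi-square per degree of freedom was 3.43 for the Tcf21 P7 pair, 18.4 for the Postn P7 pair and 9.9 to 38.1 within Tcf21 P30. The Tcf21 P7 libraries were thus the closest pair, and whether they came from separate animals is not stated. Results with these libraries summed are given at the end. The labels give no batch.

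All members were named, and of the other pathway genes up to 4 of the largest called changes per comparison; 1 further gene is not reported here. Genes outside this rule are said to be named after their values were seen. Alternatives were DESeq2 1.42.0, limma-voom (limma 3.58.1), other scalings, no filter, fits of 2 groups, a replicate block, each library left out, both endothelial-rich libraries left out, and the Tcf21 P7 libraries summed. Of the other pathway genes, Ifnb1, Ifng, Ccl5 and Ifi47 had too few counts to test, and Mb21d1 was not matched to a symbol.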

Additional observations from a re-analysis of the deposited data

How the results depend on the processing

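Of the 32 members that rose with age, 27 were called in all 17 alternative settings, and of the 31 that were lower in Postn P7 than in Tcf21 P30, 27 were. No member changed sign in either comparison with Tcf21 P30. The number of members called ran from 27 to 37 with age and from 28 to 37 for Postn P7 against Tcf21 P30. All 37 were called without the filter on low counts in both comparisons, and with DESeq2 for Postn P7 against Tcf21 P30; the cause was not tested.

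Between the day 7 groups, where Ifih1 alone was called, 4 members were called with no filter on low counts, 2 with DESeq2, 0 with limma-voom, 0 with only the 2 groups fitted, 0 with the Tcf21 P7 libraries summed and 8 without both endothelial-rich libraries. Leaving out 1 library at a time gave 0 to 3. At an unadjusted p under 0.05, edgeR found 4 members. H2-K1 reversed from -0.15 to 0.391 without both endothelial-rich libraries. For all genes between the day 7 groups, the 2118 called became 3442 with no filter, 3750 without both endothelial-rich libraries and 123 with the Tcf21 P7 libraries summed, and 111 to 3250.0 when 1 library was left out. The split of 1149 higher and 969 lower became 1741 and 472 with library size alone and 1187 and 647 with upper-quartile factors. With age, the 5604 genes called became 2463 with the Tcf21 P7 libraries summed and 2418 to 6063 with 1 library left out. For Postn P7 against Tcf21 P30, the 4276 called became 2810.0 to 5072 with 1 library left out, and the split of 2070.0 higher and 2206 lower became 2802 and 1725 with library size alone. The settings differ in the libraries and genes they use, and the cause of these shifts was not tested.

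Whether replicate numbers pair the libraries is not stated in the labels. Deviations of same-numbered libraries correlated at 0.04 to 0.31, but differently numbered libraries were not compared, so these values cannot decide it. With the replicate block, 1, 32 and 30 members were called in the day 7, age and Postn P7 against Tcf21 P30 comparisons, and 1556, 4553 and 3348 genes in all; Ifit1 was lost in the last comparison (adjusted p = 0.065), and with age the calls of Nlrc5 (0.084), Iigp1 (0.061) and Cxcl9 (0.08) were lost. Groups of 2 and 3 libraries limit what can be called.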
